A study of Homo sapiens with 8 samples.

Results

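The comparison described here is JMJD3 against vector in cultured A375-LM3 melanoma cells, on 4 of the series' 8 arrays. Its members are the 15462 probes that carry 1 gene symbol and lay above background on at least 2 of these 4 arrays, out of 30113 probes with 1 symbol. They stand for 11557 of 20046 named genes, each read from its brightest probe. A375-LM3 derives from A375, an established human melanoma line. The vector group holds 2 arrays of cells labelled as expressing vector, and the JMJD3 group holds 2 arrays of cells labelled as expressing JMJD3, titled WT by the submitters. All 4 came from cells kept in culture for 1 day in medium with serum. The remaining 4 arrays, 2 of vector and 2 of JMJD3 cells, came from primary tumors that A375-LM3 cells had formed, dissociated and carried for 3 passages, and they serve only to set the effect beside that in culture. The labels do not say how JMJD3 was introduced, whether the lines are clones or pools, or whether the 2 arrays of a group came from separate cultures, so p-values measure the spread between arrays, which may be technical. As a limit of the model, each group is 1 derivative line of 1 melanoma.

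JMJD3, encoded by KDM6B, removes methyl groups from lysine 27 of histone H3. Trimethylated lysine 27 is laid down by Polycomb repressive complex 2, whose catalytic subunits are EZH1 and EZH2, and marks repressed genes, many of them developmental regulators. JMJD3 is induced by inflammatory stimuli in mouse macrophages, where it was studied for its part in inflammatory gene expression. The series asked which genes respond to JMJD3 in these cells.

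In the cultured JMJD3 cells, 44 of the 11557 genes tested differed from vector cells at a limma Benjamini-Hochberg adjusted p under 0.05, which is 0.381% of genes. Of these, 43 were higher with JMJD3 (0.372%) and 1 was lower (0.00865%). By log2 difference, the first were the interstitial collagenase MMP1, the small proline-rich protein SPRR2D, the stromelysin MMP10, the glycoprotein hormone STC1, the FGF-binding protein FGFBP1, the mucosal glycoprotein DMBT1, the G protein regulator RGS4, the decoy receptor TNFRSF11B and the chemokine CXCL8. Their log2 differences ran from 0.98 to 3.56, with a median of 1.73, while the median of all genes was -0.01. Of the 43 higher genes, 16 were not above background on either vector array, and 21 were above it on both. Those 16 entered the test through their JMJD3 arrays alone, so the filter fixed a positive difference for them. Some of them also count in the shares of called list members given below. The 2 groups separated without overlap in 36.2% of all genes. With each array left out in turn, the number of calls was 94 (6 lower) without vector replicate 1, 127 (29 lower) without vector replicate 2, 131 (30 lower) without JMJD3 replicate 1 and 55 (1 lower) without JMJD3 replicate 2. Each of those 4 fits leaves 1 array in a group, so the other group alone gives the spread. Their counts therefore cannot show how stable the calls are. All 44 genes kept their direction in each, which was fixed beforehand, since the 2 groups overlapped in none of them. In 1 fit of all 8 arrays 11 of the 44 were called, all higher. They were SPRR2D, MMP10, STC1, FGFBP1, RGS4, TNFRSF11B, CXCL8, SPRR2F, SLC14A1, VAT1L and TFPI. MMP1, CCL2, DMBT1, SPP1 and BMP2 were among those not called in that fit. The sizes of the differences depend on the background correction: without it, 28 of the 44 folds were over 1.5 times smaller, with a median ratio of 1.66, and 32 of the 44 genes were called. The 12 not called without it were PI3, NDP, FOXA2, MMP13, NTSR1, LGR6, HES2, TMEM163, GEM, AGTR1, GDF15 and SOX9. Where neither vector array was above background, the fold is given as a bound ("at least") from the deposited, uncorrected intensities, with the vector arrays raised to the background level.

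**Figure D1:**
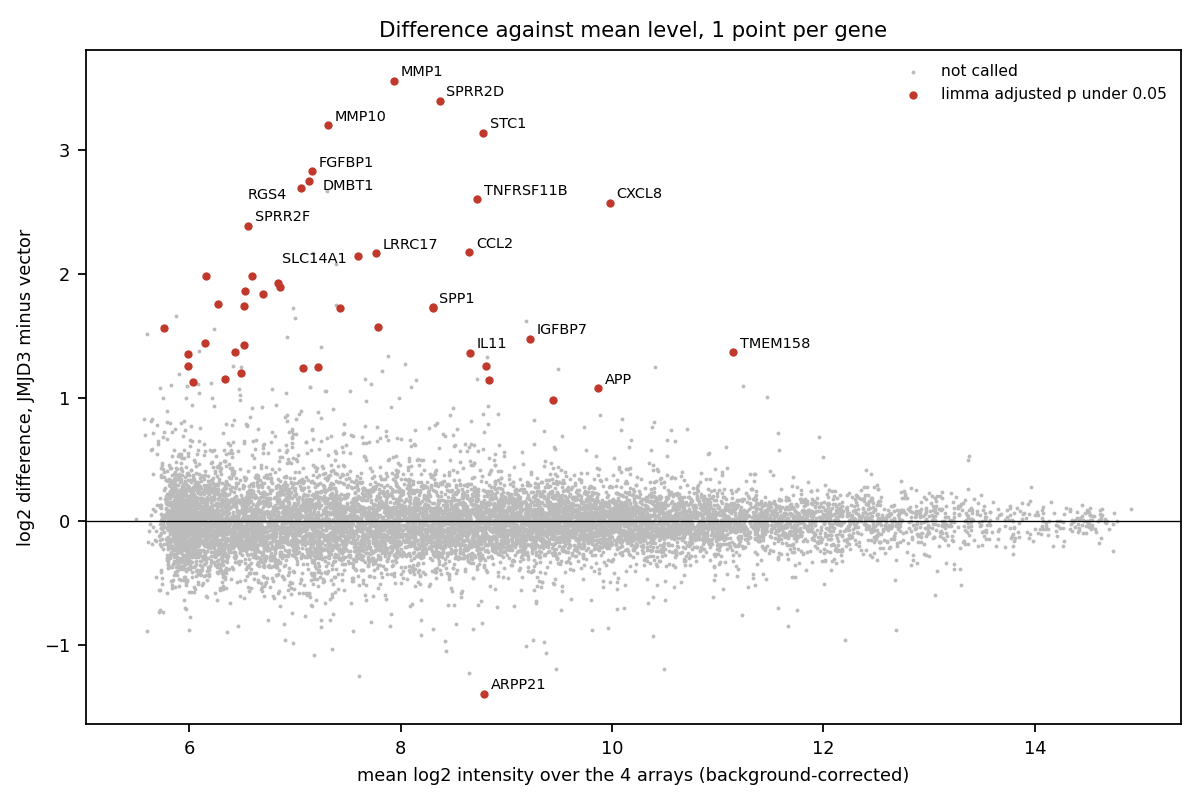
Log2 difference between JMJD3 and vector cells (vertical axis) against mean background-corrected log2 intensity over the 4 cultured arrays (horizontal axis), 1 point per gene. The 44 called genes are red; 43 lie above 0 and ARPP21 alone lies below it, and most of the brightest genes lie close to 0.

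The arrays were alike in overall signal. Between 19843 and 19855 probes of each cultured array lay above the background level of 161.6 intensity units, an evenness fixed by a shared intensity distribution. Across probes, r was 0.992 between the vector arrays and 0.990 between the JMJD3 arrays. Of 12 melanocyte markers on the array, 6 were above background on all 4 cultured arrays (MITF, SOX10, S100A1, CSPG4, PRAME and MCAM), while TYR, TYRP1, MLANA and S100B, which mark pigment cells, were above it on none. The summed intensity of the melanocyte markers was 6588 to 8149 in vector and 5901 to 6922 in JMJD3 cells. No endothelial marker was above background on all 4 arrays, and PECAM1, CDH5, KDR, VWF and CLDN5 were above it on none. PTPRC, CD3D, CD3E and CD79A of leukocytes and COL3A1, THY1, FAP and POSTN of fibroblasts were also above it on none. CD14 and CD68, which mark monocytes and macrophages, were above it on all 4, and the sum of the 8 leukocyte markers was 2379 to 2615 in vector and 2422 to 2463 in JMJD3 cells. Of 10 fibroblast markers 3 were above background on all 4 arrays (DCN, LUM and PDGFRB), and the list's sum was 1683 to 1750 in vector and 1784 to 1850 in JMJD3 cells; the part of these markers in the results was not tested.

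KDM6B itself was not above background on any of the 4 cultured arrays. Its single probe read 150.3 and 144.5 in vector cells and 155.8 and 149.96 in JMJD3 cells. The groups overlapped, with means of 147.4 ± 4.11 and 152.9 ± 4.14 (SD, n = 2). The labels do not say whether the introduced JMJD3 holds the stretch this probe reads, and the array therefore gives no check of the labels through KDM6B. Of 21 genes for H3K27 and Polycomb enzymes on the array, 20 were tested and none was called, against 0.381% of all genes. Their median log2 difference was -0.09. The most negative was EZH1, the alternative catalytic subunit, at -0.47 ± 0.16 (SE, adjusted p = 0.509). EZH1 was dim, at 176.5 and 169.2 in vector cells and 148 and 159 in JMJD3 cells. With no JMJD3 array above background, it entered the test through its vector arrays alone, so the filter fixed a negative difference. PHF19, a PRC2 accessory protein, was at -0.35 ± 0.15 (SE).

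The chemokines CXCL8 and CCL2 were each higher with JMJD3. CXCL8, the neutrophil attractant, read 561 and 475 in vector cells and 2577 and 2558 in JMJD3 cells. Both JMJD3 arrays lay far above both vector arrays. The log2 difference was 2.58 ± 0.16 (SE), a 5.96-fold increase (adjusted p = 0.00065), and a second CXCL8 probe was called as well. CCL2, the monocyte attractant, read 304 and 280.2 in vector cells and 927 and 989 in JMJD3 cells. It was 4.52-fold higher (log2 2.18 ± 0.15; adjusted p = 0.00107), again without overlap. Of 13 CXC chemokines on the array 4 were tested, and CXCL8 was the 1 called, against 0.381% of all genes. CXCL1, a close relative of CXCL8, read 531 and 614 against 807 and 782.1, a log2 difference of 0.56 ± 0.15 that missed the threshold (adjusted p = 0.324). CXCL16 and PPBP were at -0.28 and -0.16. Of 6 CC and other chemokines tested, CCL2 alone was called, against 0.381% of all genes. CCL5 and CX3CL1 were at -0.18 and -0.13.

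Among cytokines and their receptors, TNFRSF11B and IL11 rose, 2 of 16 tested, against 0.381% of all genes. TNFRSF11B, osteoprotegerin, the soluble decoy receptor for RANKL, read 285 and 263 in vector cells and 921 and 1428 in JMJD3 cells. Its groups did not overlap, and it was 6.08-fold higher (log2 2.60 ± 0.23; adjusted p = 0.00349). IL11, an IL6-family cytokine, read 326 and 385 against 735 and 762. Its increase was 2.57-fold (log2 1.36 ± 0.16; adjusted p = 0.0168). The list's median log2 difference was 0.26, against -0.01 for all genes, and the receptors OSMR and IL7R were at 0.71 and 0.59, both short of the threshold. None of 22 tested NF-kB subunits and feedback regulators was called, against 0.381% of all genes, and their median was -0.06. NFKBIA, the inhibitor that NF-kB induces, was at 0.41 ± 0.15 (SE), IKBKE at 0.44 ± 0.14, NFKB1 at -0.32 ± 0.15 and IER3 at -0.47 ± 0.21. PTGS2, the inducible cyclooxygenase, read 205.8 and 182.8 in vector cells and 568 and 305 in JMJD3 cells. Those groups did not overlap, but the JMJD3 arrays differed widely, and its log2 difference of 1.75 ± 0.35 missed the threshold (adjusted p = 0.136). None of the 7 prostaglandin genes tested was called, against 0.381% of all genes.

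The matrix metalloproteinases were the list with the largest single difference. MMP1, which cleaves fibrillar collagen, read 176.2 and 171 in vector cells and 741 and 1208 in JMJD3 cells. It lay just above background in the former and well above it in the latter, an 11.8-fold increase (log2 3.56 ± 0.24; adjusted p = 0.00113) that was 5.45-fold without background correction. MMP10, stromelysin 2, read 157.8 and 152.2 against 463 and 752. With neither vector array above background its increase is a bound, at least 3.65-fold (adjusted p = 0.00213). MMP13, collagenase 3, read 153.8 and 138.6 against 205 and 236. It was at least 1.36-fold higher (adjusted p = 0.0465), its JMJD3 values remained dim, and without background correction it was not called (adjusted p = 0.139). These 3 were the called members of 14 tested, against 0.381% of all genes, and the list's median was 0.16. MMP3, stromelysin 1, read 166 and 175 against 278 and 633, a log2 difference of 2.17 ± 0.43 (adjusted p = 0.136). MMP9, a gelatinase, was at 1.55 ± 0.24 (adjusted p = 0.0578), with no vector array above background.

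MMP10, MMP1, MMP3 and MMP13 are neighbours in a cluster of 9 metalloproteinase genes on chromosome 11, in the order given by RefSeq. MMP12, which lies between MMP3 and MMP13, was above background on no cultured array, and neither were MMP7, MMP20, MMP27 and MMP8 on the other side. MMP10 and MMP13 entered the test through their JMJD3 arrays alone, so a positive difference was fixed for them by the filter.

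**Figure D2:**
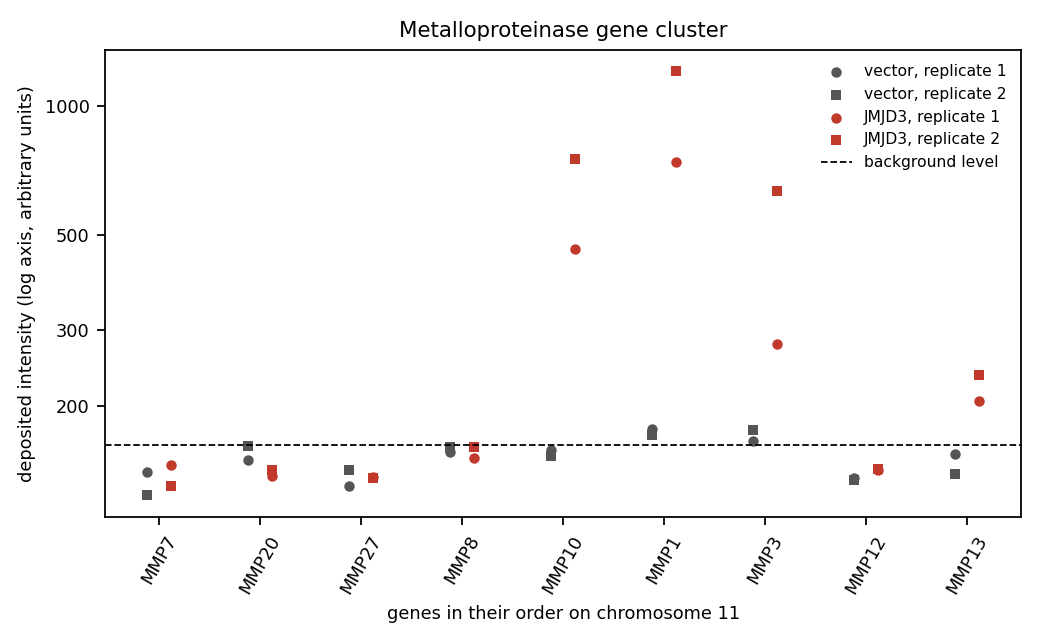
Deposited intensity (vertical log axis) of the 9 metalloproteinase genes in their order on chromosome 11, for each of the 4 cultured arrays; the dashed line is the background level. MMP10, MMP1, MMP3 and MMP13 stand above the line in both JMJD3 arrays, and the other 5 genes stay below it on every array.

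A second set of called genes lies in the epidermal differentiation cluster of chromosome 1, which codes for proteins of the cornified envelope of skin. SPRR2D read 198 and 210.7 in vector cells and 1097 and 1264 in JMJD3 cells. All values exceeded background, and the increase was 10.6-fold (log2 3.40 ± 0.15; adjusted p = 0.000439), or 5.76-fold without background correction. SPRR2F read 140.3 and 147.1 against 295 and 345, at least 1.97-fold higher (adjusted p = 0.00139). S100A9, a subunit of calprotectin, read 142 and 135 against 225 and 266, at least 1.52-fold higher (adjusted p = 0.00509). Between and around them, SPRR3, SPRR2B, SPRR2E, SPRR2G and LORICRIN were above background on no cultured array, and SPRR1B was at a log2 difference of -0.11. Members of the SPRR2 family are nearly identical in sequence, so which SPRR2 transcript each probe read is uncertain; SPRR2A read 144.1 and 149.7 against 154.8 and 168.7. Of 7 epidermal genes tested these 3 were called, against 0.381% of all genes. SPRR2F and S100A9 entered the test through their JMJD3 arrays alone, so a positive difference was fixed for them by the filter. Of 23 epidermal genes on the array, 16 were not tested, so the filter also shaped the share called. KRT14, a basal keratin, was at -0.50 ± 0.16 (adjusted p = 0.43). None of 4 keratinocyte and epithelial markers tested was called, against 0.381% of all genes. Nor was any of 6 fibroblast, 4 leukocyte and 1 endothelial list members tested. PI3, elafin, an elastase inhibitor of epithelia, read 151.9 and 149.4 against 239.5 and 328 and was at least 1.73-fold higher (adjusted p = 0.0186; 0.0847 without background correction).

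Secreted growth factors and their binding proteins contributed several called genes. STC1, stanniocalcin 1, a secreted glycoprotein, read 268 and 235 in vector cells and 1218 and 1638 in JMJD3 cells. The groups lay far apart, and the increase was 8.84-fold (log2 3.14 ± 0.20; adjusted p = 0.000732), or 5.63-fold without background correction. FGFBP1, which releases FGFs from the matrix, read 152.6 and 159.5 against 450.9 and 520.5, at least 3.00-fold higher (adjusted p = 0.00065). They made up the 2 calls among 22 secreted angiogenic or growth factors tested, against 0.381% of all genes, and the list's median log2 difference was 0.17. FGFBP1 entered the test through its JMJD3 arrays alone, so the filter fixed a positive difference for it. PDGFC and NRG1, receptor tyrosine kinase ligands, were at 1.09 ± 0.19 (adjusted p = 0.0806) and 1.07 ± 0.20 (adjusted p = 0.118). Outside that list, IGFBP7, a secreted IGF-binding protein relative, read 475 and 447 against 1090.1 and 1106 (log2 1.48; adjusted p = 0.00509). GDF15, a stress-responsive member of the TGF-beta superfamily, was at least 1.38-fold higher, and NDP, norrin, the ligand of frizzled-4, at least 1.52-fold higher.

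Among BMP pathway genes, BMP2 rose. BMP2, a ligand of the BMP receptors, read 188.3 and 207.1 in vector cells and 401.1 and 433 in JMJD3 cells. It was 3.31-fold higher without overlap (log2 1.73 ± 0.16; adjusted p = 0.00455), or 2.11-fold without background correction. Of 18 BMP ligands, receptors and targets tested it was the 1 called, against 0.381% of all genes, and the list's median was -0.02. At a limma unadjusted p under 0.05, 3 of the 18 were higher and 4 lower, against 7.82% of all genes in both directions. BMP4 was above background on none of the 4 arrays, at 131.3 and 145.5 in vector and 143.3 and 137.2 in JMJD3 cells. Follistatin (FST), which binds activins and BMPs, was at -0.72 ± 0.15 (adjusted p = 0.146) and ID2, a transcriptional target of BMP signalling, at 0.57 ± 0.18 (adjusted p = 0.418).

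Both tissue factor pathway inhibitors were higher. TFPI2 read 257 and 298 in vector cells and 647 and 709.8 in JMJD3 cells, a 3.31-fold increase (log2 1.73 ± 0.16; adjusted p = 0.00538). TFPI, the inhibitor of the factor VIIa complex, read 195.9 and 202 against 312 and 352, a 2.37-fold increase (adjusted p = 0.0186). In each the lower JMJD3 array exceeded the higher vector array. These were the 2 called of 13 coagulation and plasminogen genes tested, against 0.381% of all genes, with a list median of 0.10; PROCR, the protein C receptor, was at 0.57 ± 0.19. CD55, which protects cells from complement, read 402 and 382 against 821 and 769.8 (log2 1.26; adjusted p = 0.0133).

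Matrix proteins and other secreted products followed. SPP1, osteopontin, read 280.4 and 272 in vector cells and 681 and 676 in JMJD3 cells. The 2 arrays of each group nearly coincided, and SPP1 was 3.32-fold higher (log2 1.73 ± 0.14; adjusted p = 0.00198). It was the 1 called of 21 collagens and matrix proteins tested, against 0.381% of all genes, and their median was 0.01. LAMB3 was at 0.97 ± 0.19 and LAMA4 at -0.72 ± 0.26, neither past the threshold. VCAN, the proteoglycan versican, read 233 and 228.5 against 556 and 424 (log2 1.57 ± 0.19; adjusted p = 0.0168). DMBT1, a scavenger receptor cysteine-rich glycoprotein of mucosa, read 155.9 and 157.3 against 508 and 432 and was at least 2.90-fold higher (adjusted p = 0.00065). LRRC17, a leucine-rich repeat protein, was 4.49-fold higher (2.75-fold uncorrected), and CHGB, a protein of secretory granules, had a log2 difference of 1.89 ± 0.16 (1.01 uncorrected). None of 19 integrin and adhesion genes tested was called, against 0.381% of all genes. ITGA2 was at 0.78 ± 0.17 and ITGB3 at -0.87 ± 0.33.

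Genes of receptors, G protein signalling and transport were also among the higher ones. RGS4, which speeds GTP hydrolysis by G alpha subunits, read 156.3 and 153.3 in vector cells and 404 and 484 in JMJD3 cells. Neither vector array was above background, and the increase was at least 2.74-fold (adjusted p = 0.00065). RGS4 was the 1 called of 10 RGS genes tested, against 0.381% of all genes. It entered the test through its JMJD3 arrays alone, so the filter fixed a positive difference for it. RGS16 was at 0.67 ± 0.19 and RGS20 at -0.50 ± 0.18. SLC14A1, a urea transporter, read 194.1 and 194.9 against 467 and 556, a 4.41-fold increase (adjusted p = 0.00148; 2.62-fold uncorrected). VAT1L, a homologue of a synaptic vesicle membrane protein, read 157.7 and 164.9 against 368 and 291 (log2 1.93 ± 0.19; adjusted p = 0.00646; log2 1.02 uncorrected). Its 2 JMJD3 arrays were both well above the vector arrays, of which 1 was above background. GPRC5C, an orphan receptor, was at least 1.82-fold higher, and PKIB, an inhibitor of protein kinase A, at least 1.67-fold higher. The angiotensin receptor AGTR1, the neurotensin receptor NTSR1 and the R-spondin receptor LGR6 were at log2 differences of 1.20, 1.43 and 1.37, each with 1 vector array above background. AGTR1 had another probe, which was not called, at 0.75.

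The remaining called genes include 3 transcription factors, all dim. SOX9, a factor of cartilage and neural crest development, read 147.3 and 146.1 in vector cells and 193 and 206 in JMJD3 cells, at least 1.23-fold higher (adjusted p = 0.0252; 0.202 without background correction). FOXA2, a factor of endoderm, and HES2, a basic helix-loop-helix repressor, were at least 1.21-fold and 1.27-fold higher. Of the 4 cultured arrays, the 2 JMJD3 arrays alone were above background for each of them. SOX9 was the 1 called of 20 tested genes of an invasive, dedifferentiated melanoma state, against 0.381% of all genes. It entered the test through its JMJD3 arrays alone, so the filter fixed a positive difference for it. The list's median log2 difference was 0.20. EGFR of that list was at 0.74 ± 0.16 (adjusted p = 0.158), and another EGFR probe was at 0.16. The brightest called gene was TMEM158, a membrane protein described as induced by Ras, which read 1395 and 1644 against 3544 and 3956 (log2 1.37 ± 0.16; adjusted p = 0.0147). APP, the amyloid precursor protein, read 792 and 704 against 1428 and 1495, and its 2 further probes, at 0.32 and 1.00, were not called. RGL1, an exchange factor for Ral, had the smallest called difference at 0.98 ± 0.14. DIO2, which activates thyroid hormone, the small GTPase GEM and the elongation factor EEF1A2 were at 1.84, 1.24 and 1.14. TMEM163, a zinc transporter not above background on either vector array, was at least 1.24-fold higher. EEF1A2 is close in sequence to the abundant EEF1A1, so its reading is uncertain. PRB1, a salivary proline-rich protein with close paralogs, was called by a dimmer probe only (log2 1.88; adjusted p = 0.0465).

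**Figure D3:**
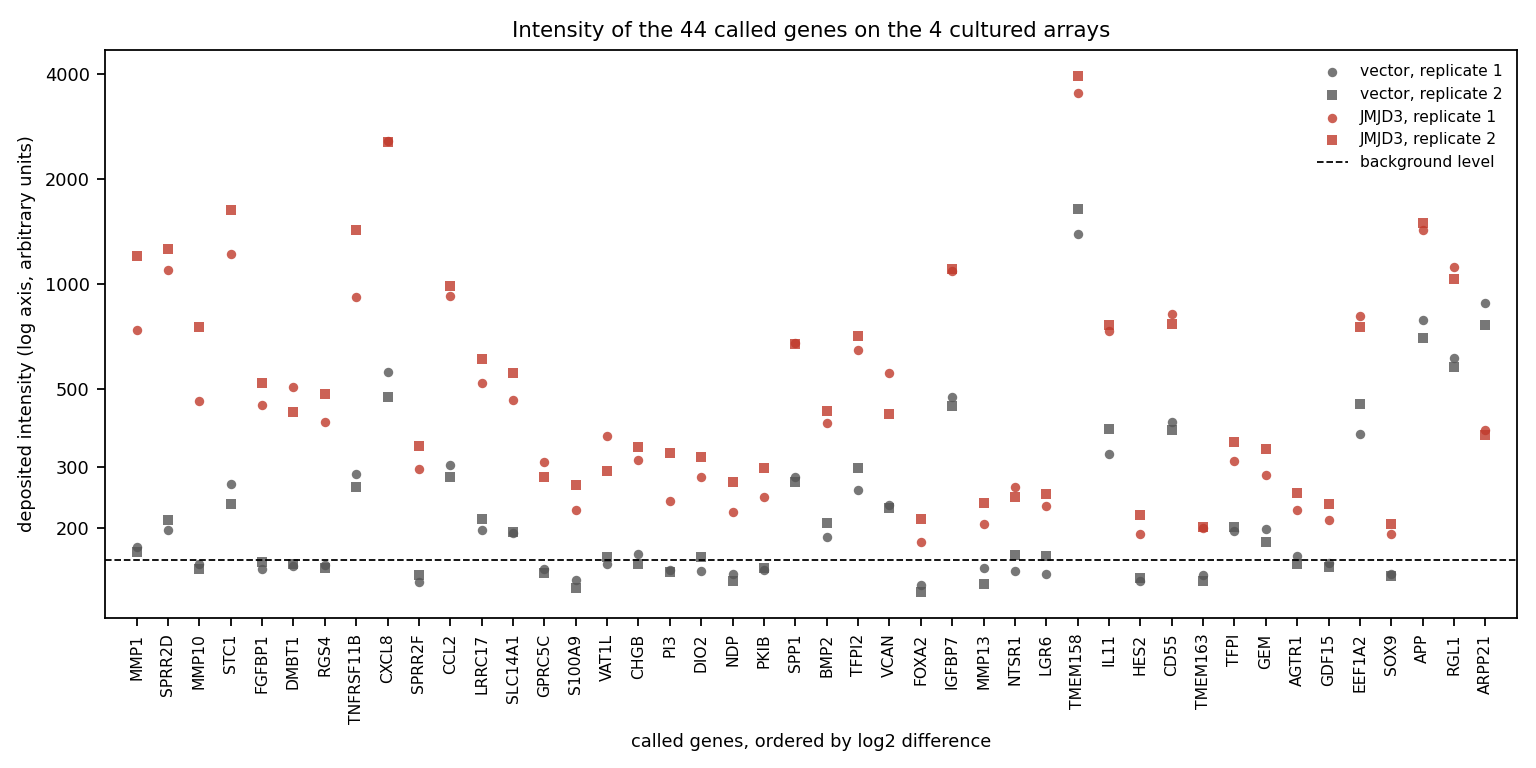
Deposited intensity (vertical log axis) of the 44 called genes on the 4 cultured arrays, ordered by log2 difference; grey marks are vector arrays, red marks JMJD3 arrays, circles replicate 1 and squares replicate 2, and the dashed line is the background level of 161.6. The red marks lie above the grey ones in 43 genes and below them in ARPP21, and 16 genes have both grey marks below the line.

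A single gene was lower with JMJD3, a count that depended on the fit. It was 8 with a normexp offset of 50, 9 with an intensity trend in eBayes and 94 with a block for replicate number. The labels do not say whether equal replicate numbers mark a pairing. ARPP21, a cAMP-regulated phosphoprotein, read 886 and 762 in vector cells and 383 and 369 in JMJD3 cells. The groups did not overlap, and the log2 difference was -1.40 ± 0.15 (SE; adjusted p = 0.0111), with a second ARPP21 probe called at -1.45. The 5 most negative uncalled genes without overlap were TRIM51 at -1.25, FCRLA at -1.23, PAPSS2 at -1.20, HAPLN1 at -1.19 and FXYD3 at -1.08. Their adjusted p-values ran from 0.0855 for PAPSS2 to 0.51 for FXYD3, and in FCRLA the vector arrays read 991 and 529 against 472 and 288. At an unadjusted p under 0.05 there were 497 higher and 407 lower genes, 7.82% of all tested in both directions.

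Several lists relevant to melanoma and to JMJD3 held no called gene. With 0.381% of all genes called, lists of their size would mostly hold none, so this does not show that they were unaffected. None of 12 melanocyte lineage genes tested passed, with a median log2 difference of -0.07. CSPG4, a melanoma-associated proteoglycan, was at -0.61 ± 0.20 and PAX3, a melanocyte transcription factor, at 0.62 ± 0.14. PAX3 read 145.6 and 143.6 in vector cells and 170.4 and 164.2 in JMJD3 cells. Neither vector array of PAX3 was above background, so the filter fixed a positive difference and its size is uncertain. None of 22 HOX genes passed, with a median of 0.04. Among 25 ATF4 and unfolded protein response genes none passed, 21 were negative and the median was -0.24, against -0.01 over all genes, of which 6051 of 11557 were negative. ASNS, asparagine synthetase, read 4586 and 3451 in vector cells and 2182 and 2831 in JMJD3 cells, a log2 difference of -0.70 ± 0.20 (adjusted p = 0.36). The serine synthesis enzymes PSPH and PSAT1 were at -0.63 ± 0.14 and -0.53 ± 0.16, and the cystine transporter SLC7A11 at -0.48 ± 0.14. None of 29 interferon-stimulated genes, 34 mitosis and S phase genes, 19 ERK output genes, 17 AP-1 and immediate early genes, 17 CDK inhibitor and p53 genes, 19 hypoxia genes or 16 cholesterol genes passed. Their medians lay between -0.15 for ERK output and 0.11 for interferon-stimulated genes. CDKN1A, the p21 inhibitor, was at 0.58 ± 0.14 and JUN, an AP-1 subunit, at 0.60 ± 0.22, neither past the threshold.

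**Figure D4:**
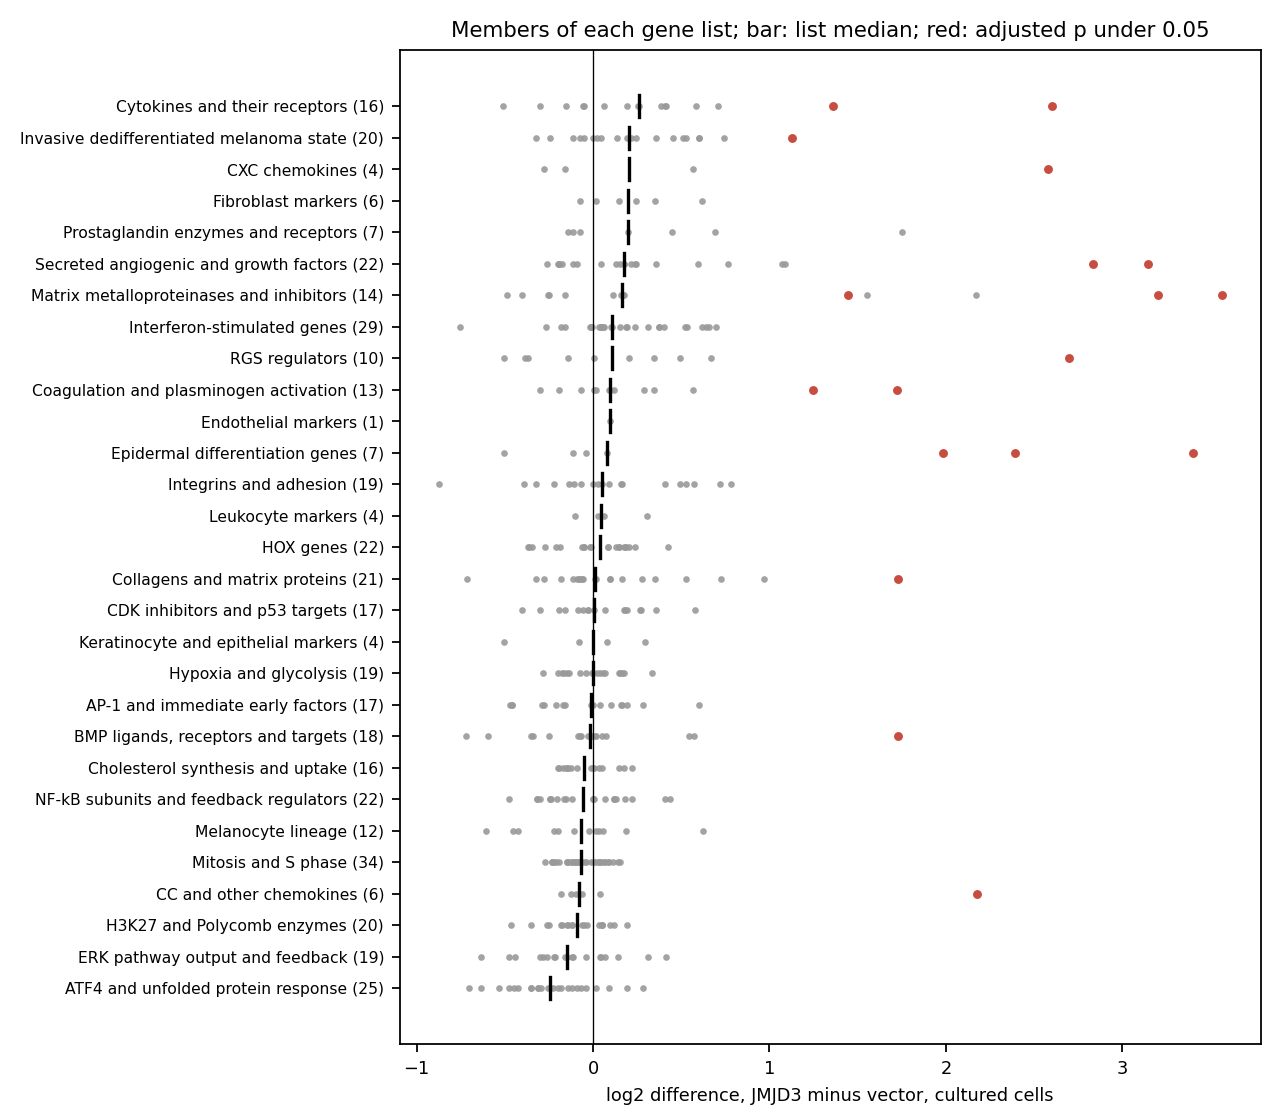
Log2 difference between JMJD3 and vector cells (horizontal axis) for the tested members of 29 gene lists (rows, with the number tested); black bars are list medians and red points are genes called at an adjusted p under 0.05. Every red point lies on the positive side, and list medians lie between -0.24 and 0.26.

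Promoters are shown for 5 higher genes of different roles, to let the letters be read of an AP-1 motif they share. Each runs from 250 bases before to 50 bases after the start of the gene in RefSeq (GRCh38.p14), 5′ to 3′ along the gene. Capitals mark motif matches on either strand. The AP-1 motif was searched as TGANTCA. The motif of NF-kB was searched as GGANTTTCC. For the TATA box the letters searched were TATAAA. TEAD factors were searched by the letters GGAATG. No match in the promoters shown overlaps another. They are CXCL8 on the plus strand at chr4:73740319-73740618, MMP10 on the minus strand at chr11:102780579-102780878, SPRR2F on the minus strand at chr1:153113467-153113766, TFPI2 on the minus strand at chr7:93890704-93891003 and IL11 on the minus strand at chr19:55370414-55370713.
CXCL8: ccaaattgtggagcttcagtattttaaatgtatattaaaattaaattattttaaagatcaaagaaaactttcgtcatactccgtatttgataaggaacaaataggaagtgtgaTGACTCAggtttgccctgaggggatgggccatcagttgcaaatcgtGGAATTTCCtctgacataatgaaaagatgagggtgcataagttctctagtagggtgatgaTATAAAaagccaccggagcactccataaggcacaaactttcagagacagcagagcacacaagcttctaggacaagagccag
MMP10: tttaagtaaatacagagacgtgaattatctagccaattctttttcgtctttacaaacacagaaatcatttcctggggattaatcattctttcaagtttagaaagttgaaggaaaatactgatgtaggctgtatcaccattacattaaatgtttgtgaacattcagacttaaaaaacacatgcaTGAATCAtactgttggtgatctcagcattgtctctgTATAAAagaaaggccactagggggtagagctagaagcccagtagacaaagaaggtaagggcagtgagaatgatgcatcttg
SPRR2F: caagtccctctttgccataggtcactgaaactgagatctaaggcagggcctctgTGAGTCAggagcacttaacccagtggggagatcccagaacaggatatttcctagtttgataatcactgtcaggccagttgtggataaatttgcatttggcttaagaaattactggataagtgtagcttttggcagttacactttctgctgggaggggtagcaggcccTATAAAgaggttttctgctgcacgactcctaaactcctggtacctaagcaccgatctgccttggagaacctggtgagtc
TFPI2: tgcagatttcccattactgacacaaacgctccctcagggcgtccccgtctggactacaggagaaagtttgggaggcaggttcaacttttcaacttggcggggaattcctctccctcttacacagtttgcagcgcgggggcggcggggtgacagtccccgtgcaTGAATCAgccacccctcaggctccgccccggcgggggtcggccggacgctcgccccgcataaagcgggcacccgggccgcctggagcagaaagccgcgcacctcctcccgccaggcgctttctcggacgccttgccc
IL11: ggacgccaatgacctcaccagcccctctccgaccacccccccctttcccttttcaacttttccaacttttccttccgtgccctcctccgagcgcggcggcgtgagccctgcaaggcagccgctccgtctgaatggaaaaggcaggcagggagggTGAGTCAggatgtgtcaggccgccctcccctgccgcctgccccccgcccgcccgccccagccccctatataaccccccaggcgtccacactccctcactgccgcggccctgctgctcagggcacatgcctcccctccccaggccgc

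Promoter sequence was found for 26 of the 43 higher genes. TGANTCA was in 7 of the 26 (26.9%), namely MMP10, CXCL8, SPRR2F, TFPI2, IL11, DIO2 and APP, against 4.58% of the 9303 promoters of tested genes and 7.71% of all 35116 promoters. TATAAA was likewise in 7 of 26, against 5.8% of tested and 11.5% of all promoters. GGANTTTCC was in 1 of 26 (3.85%, CXCL8) against 1.58% of tested promoters, and GGAATG was in 2 of 26 (7.69%) against 10.6%. The motif positions, counted from the start of the gene, were -137 in CXCL8, -67 in MMP10, -196 in SPRR2F, -87 in TFPI2 and -96 in IL11. The letters describe the sequence and do not show that a factor binds, and the motifs were chosen with results known.

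In the tumor-dissociated cells, which share no array with the culture comparison, the 43 higher genes were mostly higher as well. Of the 43, 34 had a positive difference, against 49.8% of all genes tested. In 27 the 2 JMJD3 arrays separated upward from the 2 vector arrays, against 19% of all genes. The fit of all 8 arrays takes its spread partly from the cultured arrays that selected these genes. Its p-values are therefore not independent of that selection. In that fit 28 of the 43 had an unadjusted p under 0.05 upward, against 6.58%. By the same fit 11 were called higher, against 0.381% of all genes. These were SPRR2D, FGFBP1, DMBT1, SPRR2F, SLC14A1, S100A9, VAT1L, BMP2, TFPI2, IGFBP7 and TMEM163. The median log2 difference of the 43 was 1.20, and that of all genes -0.001. The 11 calls became 2 without tumor-dissociated vector replicate 2, 7 without JMJD3 replicate 1 and 24 without JMJD3 replicate 2. With the tumor-dissociated arrays fitted alone, SLC14A1 and VAT1L were called, 2 of 43 against 0.0865% of all genes, and 26 had an unadjusted p under 0.05 upward, against 4.53%. SLC14A1 read 162.9 and 179.4 in vector and 782 and 633 in JMJD3 cells there (log2 3.13 ± 0.20, fit of 8 arrays), and DMBT1 read 153.3 and 138.1 against 1980.2 and 556. Both kept their JMJD3 arrays above their vector arrays, as in culture, with a wide gap between the DMBT1 arrays.

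Other genes gave less even values in tumor-dissociated cells. MMP1, at 1098 and 1248 in tumor-dissociated vector cells, read 2617 and 731 in JMJD3 cells, which overlap. CCL2 read 669 and 717 against 7370 and 1581, a log2 difference of 2.47 ± 0.55 that missed the threshold (adjusted p = 0.0889). STC1 read 836 and 884 against 3437 and 1629 (log2 1.58 ± 0.32; adjusted p = 0.0702). In both CCL2 and STC1 the 2 JMJD3 arrays lay above the vector arrays, with JMJD3 replicate 1 the higher. The 44 genes were selected for their differences on the cultured arrays, which a test of the difference between the 2 effects uses again. That selection favours a smaller effect in tumor-dissociated cells. With this limit, the difference between the 2 effects was itself called for 3 of the 44 genes, against 0.0779% of all genes. For each of the 3 the effect was smaller in tumor-dissociated cells. They were MMP10 (log2 difference of effects -3.94 ± 0.57; adjusted p = 0.0459), CXCL8 (-2.42 ± 0.30; adjusted p = 0.0263) and SPP1 (-3.27 ± 0.42; adjusted p = 0.0295). The size for MMP10 is uncertain, since neither of its cultured vector arrays was above background. Without background correction it was -2.41 (limma adjusted p = 0.194). CXCL8 read 2802 and 3260 in tumor-dissociated vector cells and 2786 and 4058 in JMJD3 cells, so both groups were near the level of the cultured JMJD3 cells. SPP1 read 4721 and 8892 against 1842 and 2848, the reverse order of culture. These 3 calls were lost when any 1 cultured array or tumor-dissociated vector replicate 2 was left out, with adjusted p between 0.0933 and 0.255. For the other 41 genes a difference between origins was not shown, which does not mean that the effects were equal. Origin, time in culture and dissociation differ together between the sets, so their effects cannot be told apart.

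**Figure D5:**
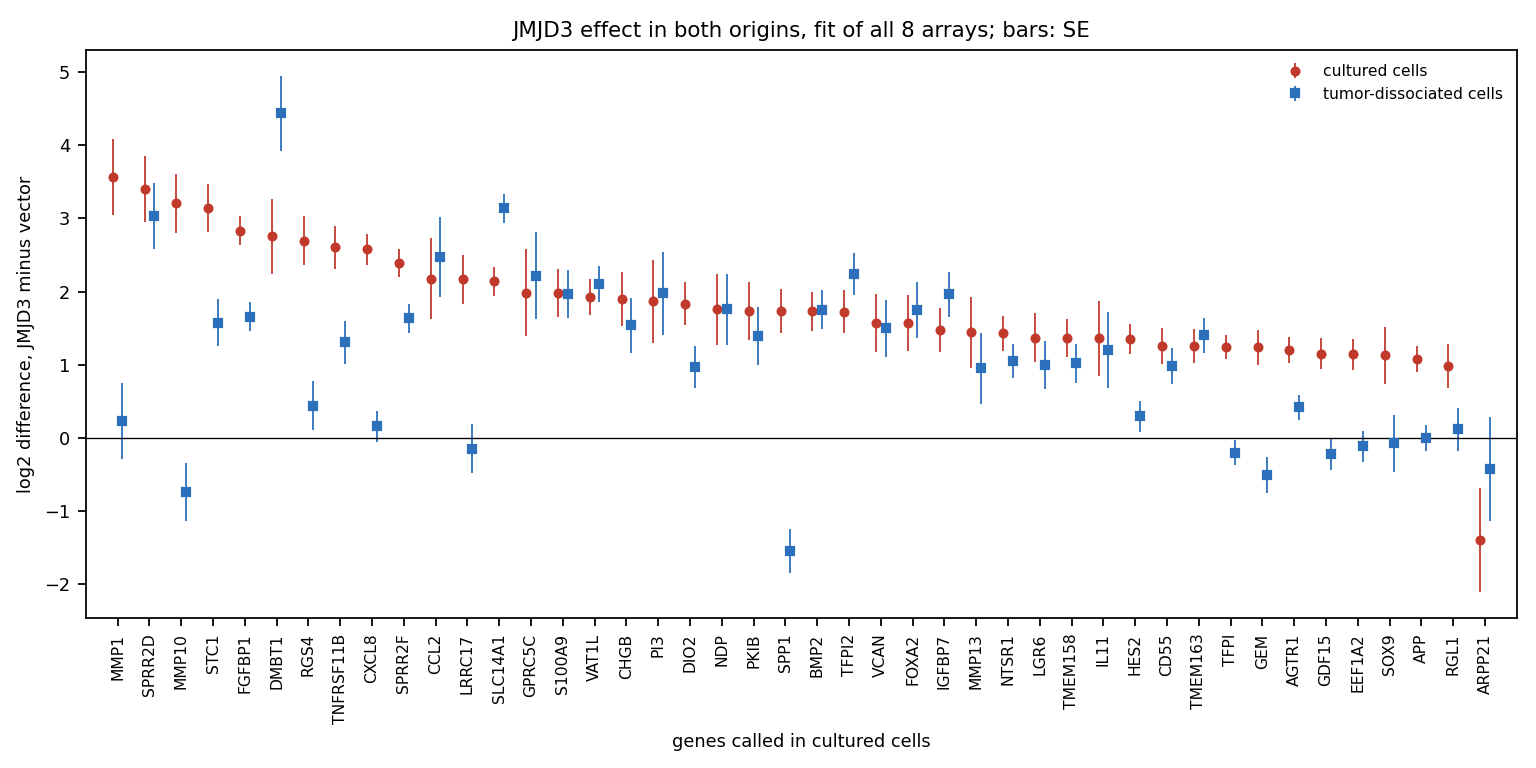
Log2 difference between JMJD3 and vector cells (vertical axis) for the 44 genes called in culture, in cultured (red circles) and tumor-dissociated cells (blue squares), from 1 fit of all 8 arrays; bars are standard errors. The blue squares lie above 0 for 34 of the 43 genes higher in culture, and MMP10, CXCL8 and SPP1 have the called differences between origins.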

How the data were processed

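The 4 cultured arrays are described here, with the 4 tumor-dissociated ones for comparison. Per the labels' protocols, total RNA was amplified and labelled with biotin, and per the series' design text it was read on Illumina HumanHT-12 V4 BeadChips, with GenomeStudio (framework 2011.1, Gene Expression module 1.9.0) for the analysis. The values deposited are linear intensities. They cover 47323 probes and share 1 distribution on all 8 arrays (largest difference of sorted columns 0.00575 on the log2 scale). How they were normalized is not stated in the labels or headers. No background had been subtracted, since no intensity fell below 110.7. A table with 16 further columns, whose names match no label, was not used.

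Probes were named from the platform annotation: 30113 had 1 symbol, 8 several and 17202 none listed here. The background level, 161.6, is the one-sided 0.01 point above the mode (139.8) of log2 intensities, with an SD of 0.0897. The probes nearest the filter were TDRD6 inside, whose second-highest intensity was 161.585, and OR52B6 outside, at 161.572. Values were corrected with normexp (offset 16), taken to log2 and fitted with limma 3.58.1 (R 4.3.3) on the 4 arrays, with 2 residual and 5.74 prior degrees of freedom; p-values were adjusted over all 15462 probes. The smallest p of an exact permutation test of 2 against 2 arrays is 0.333, so the p-values depend on the spread that limma pools over probes; the number of arrays limits the precision. A fold given as "at least" compares the deposited, uncorrected intensities of JMJD3 with those of vector, each vector array raised to its lowest intensity above background; the same ratio after normexp is larger (8.18 for MMP10). Errors are SE of log2 differences unless given as SD. The fit was tested on simulated data.

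The difference between origins came from limma on all 8 arrays (16675 probes). Named genes were KDM6B, the called genes, the 5 most negative uncalled, the called and up to 4 largest members of each list, and CCL2, STC1, BMP2 and BMP4. The members, lists, motifs and tests were chosen with earlier results of these data known.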

Additional observations from a re-analysis of the deposited data

Results flagged for a closer look

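The effect of JMJD3 differed between tumor-dissociated and cultured cells for 3 of the 44 genes by a test of the difference itself in limma. That test uses again the cultured arrays that selected the 44 genes, which favours a smaller effect in tumor-dissociated cells. MMP10 had a difference of -3.94 on the log2 scale, with 285.4 and 452.8 in tumor-dissociated vector cells against 318.4 and 208.9 in JMJD3 cells. Neither cultured vector array of MMP10 was above background, so the size is uncertain. It was -2.41 without background correction. CXCL8 had a difference of -2.42 and SPP1 one of -3.27. In SPP1 the effect in tumor-dissociated cells was -1.54 ± 0.30 (SE; adjusted p = 0.0641), the opposite sign to culture. Tumor growth, dissociation and length of culture cannot be told apart here.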

How the results depend on the processing

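All 44 called genes kept their direction under every alternative in which they were tested. Refits of the same arrays could hardly reverse it, since the 2 groups overlapped in none of the 44. Of the 44, 10 were called in each alternative that kept 2 arrays per group. The number of called genes was 67 with a normexp offset of 50 (8 lower, all 44 among them), 19 when probes had to be above background on all 4 arrays (which leaves 22 of the 44 tested), 24 with no filter on dim probes, 81 with an intensity trend in eBayes (9 lower) and 11 in 1 fit of all 8 arrays. It was 40 without background correction (32 of the 44 among them), 44 with quantile normalization of the 4 arrays or with robust eBayes, and 47 with 1 probe per gene. With 1 array left out at a time it ran from 55 to 131. The labels do not say whether equal replicate numbers mark a pairing. Over probes, the deviations of vector and JMJD3 replicate 1 from their group means correlated with r = 0.383. With 2 arrays per group, the deviations of replicate 2 mirror these exactly, so this is 1 comparison. A replicate block gave 321 called genes, 227 higher and 94 lower, the 44 included. Causes were not tested.

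The number of probes whose JMJD3 effect differed between origins was 19. It was 9 with probes above background on all 8 arrays and 6 with the replicate block. It ran from 0 to 89 with 1 array left out, the 0 being limma's count without any 1 of the 4 cultured arrays, where 745 to 1105 probes had an unadjusted p under 0.05. MMP10 and SPP1 lost the call without background correction (adjusted p = 0.194 and 0.107), MMP10 and CXCL8 with the replicate block (0.121 and 0.0502), and SPP1 without tumor-dissociated JMJD3 replicate 1 (0.0536). Of the 11 genes called higher in tumor-dissociated cells, 6 were called without background correction. Readings near background limit the dim genes to bounds.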

Other observations

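A further 43 genes had a limma adjusted p between 0.05 and 0.1 in culture, 33 higher and 10 lower with JMJD3. They are named here after their values were seen. On the higher side, LDB2, a LIM-domain binding protein, read 168.8 and 161.7 in vector cells and 769.2 and 341.3 in JMJD3 cells, a log2 difference of 2.67 ± 0.40 (adjusted p = 0.0533). The JMJD3 arrays of LDB2 differed widely but both exceeded the vector arrays. CCN3, a matricellular protein, read 404 and 372 against 695 and 965 (log2 1.33 ± 0.20; adjusted p = 0.051). TGFBR2, a TGF-beta receptor, read 922 and 923 against 1518 and 1593 (log2 0.83 ± 0.14; adjusted p = 0.076), and IGFBP3, an IGF-binding protein, had a log2 difference of 0.76 ± 0.14. NTS, the ligand of the called receptor NTSR1, was at 1.03 ± 0.17 (adjusted p = 0.0722). Neither vector array of NTS was above background, so the filter fixed a positive difference for it. On the lower side, LIMCH1, an actin-associated protein, read 1839 and 2071 against 991 and 1161, a log2 difference of -0.93 ± 0.16 (adjusted p = 0.0768). CBS, the transsulfuration enzyme cystathionine beta-synthase, read 694 and 625 against 403 and 408 (log2 -0.87 ± 0.14; adjusted p = 0.076).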
